A study of Mus musculus with 11 samples.

Results

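MyoD binding was compared between proliferating C2C12 myoblasts and myotubes taken at 48 h of differentiation. C2C12 is an established mouse myoblast line of C3H origin, which fuses into multinucleate myotubes when serum is lowered. The members are all regions of the 2 deposited MyoD peak lists, 18141 peaks in myoblasts and 39700 in myotubes, or 57841 of the 230671 regions in the 5 chromatin lists of the series. A myoblast peak that overlapped a myotube peak by 1 bp or more was called shared and otherwise lost, and a myotube peak with no myoblast overlap was called gained.

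Myoblasts grew in 10% fetal bovine serum and myotubes in 2% horse serum with insulin, transferrin and selenium. Both were cross-linked in 1% formaldehyde and precipitated with the same antibody against MyoD (C-20). A MyoG peak list of myotubes (35380 peaks) and domains of the histone mark H3K4me1 at both stages served as other readouts. Gene positions and expression came from 4 libraries taken after 4 h in differentiation medium: DRRi, with RNA interference against RNA from the MyoD distal regulatory region (DRR), its control GFPi, pHAN_DRR1.2, which overexpressed DRR RNA, and its control pHAN_GFP. Each group was 1 library of a single cell line, so no difference has a replicate check and no test was run. The sources used here give neither the read depth of the chromatin libraries nor the share of fused cells in the myotube cultures.

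MyoD is a basic helix-loop-helix (bHLH) transcription factor that turns on the skeletal muscle programme. It binds DNA with partner E proteins at short sites called E-boxes, of the form CANNTG, in promoters and in distal enhancers. Id proteins lack the DNA-binding part and hold E proteins away from MyoD in growing cells, while MyoG, itself a target of MyoD, drives terminal differentiation. H3K4me1 is a histone mark found at enhancers.

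Sites of the E-box form can be seen in the promoters of several muscle genes. Whether MyoD binds the sites printed here was not tested. Promoter sequences were those of RefSeq on the GRCm38.p6 build, 250 bases before to 50 after the start, and 9862 of 12922 genes with a locus of their own and a known strand could be matched. Of these, 555 (5.63%) had a MyoD peak within 500 bp of the start at both stages, 1201 (12.2%) in myotubes only and 78 (0.791%) in myoblasts only. The stretches below are the 150 bases before the start, 5′ to 3′ on the strand of the gene, with every CANNTG in capitals. They show the muscle promoters of the lists described later that held 3 E-boxes, together with those of Myog, Acta1 and Id3. The genes were chosen after their values were seen.

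The first 3 promoters had MyoD peaks at both stages: Chrna1 and Chrnb1, subunits of the acetylcholine receptor of muscle, and Myog. They lie at chr2:73580339-73580488 on the minus strand, chr11:69795938-69796087 on the minus strand and chr1:134289854-134290003 on the plus strand of GRCm38.p6.
Chrna1: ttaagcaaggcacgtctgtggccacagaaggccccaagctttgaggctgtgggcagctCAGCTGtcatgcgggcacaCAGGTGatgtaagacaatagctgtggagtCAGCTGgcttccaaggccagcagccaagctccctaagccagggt
Chrnb1: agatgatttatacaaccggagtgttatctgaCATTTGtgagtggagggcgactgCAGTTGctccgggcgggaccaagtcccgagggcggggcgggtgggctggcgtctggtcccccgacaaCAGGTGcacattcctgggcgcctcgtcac
Myog: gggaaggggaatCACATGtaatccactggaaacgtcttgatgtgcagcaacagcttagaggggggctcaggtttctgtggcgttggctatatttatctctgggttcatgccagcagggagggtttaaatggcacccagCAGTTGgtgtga

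The next 3 had a MyoD peak at the start in myotubes only: Pgam2, the muscle form of phosphoglycerate mutase, Trim63, a ubiquitin ligase of the sarcomere, and Acta1, skeletal alpha-actin. They lie at chr11:5803797-5803946 on the minus strand, chr4:134314970-134315119 on the plus strand and chr8:123894776-123894925 on the minus strand. Acta1 held no E-box in these bases.
Pgam2: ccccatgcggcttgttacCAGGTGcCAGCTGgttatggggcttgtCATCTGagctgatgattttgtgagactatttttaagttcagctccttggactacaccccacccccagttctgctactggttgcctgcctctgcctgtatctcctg
Trim63: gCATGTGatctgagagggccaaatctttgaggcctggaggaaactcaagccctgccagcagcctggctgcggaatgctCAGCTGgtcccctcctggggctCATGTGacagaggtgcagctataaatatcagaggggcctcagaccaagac
Acta1: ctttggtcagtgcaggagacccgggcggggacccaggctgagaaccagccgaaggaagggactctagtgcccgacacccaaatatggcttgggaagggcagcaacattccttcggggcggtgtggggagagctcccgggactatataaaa

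The promoter of Id3, an inhibitor of bHLH factors, is of the myoblast-only class: its start (chr4:136143672-136143821, plus strand) was covered by a peak in myoblasts only. Like that of Acta1, it held no E-box in these bases.
Id3: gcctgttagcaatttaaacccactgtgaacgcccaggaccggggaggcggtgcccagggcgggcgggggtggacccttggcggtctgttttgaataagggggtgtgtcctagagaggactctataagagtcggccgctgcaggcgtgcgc

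Across all matched promoters, counted over the whole window and both strands, the E-box core CAGCTG was more frequent where MyoD was bound. It occurred in 34.1% of promoters bound at both stages (95% exact Clopper-Pearson interval 30.1 to 38.2%), in 23.8% of those bound in myotubes only (21.4 to 26.3%), in 20.5% of those bound in myoblasts only (12.2 to 31.2%) and in 12.54% of unbound promoters (11.8 to 13.3%). The share over all promoters was 15.2%. The core CAGGTG followed with 24.1%, 21.2%, 26.9% and 17.9% in the same order, and 18.7% of all promoters. CANNTG, which contains both cores, differed little between the classes. It was in 73.3% of promoters bound at both stages, 70.7% in myotubes only and 67.9% in myoblasts only. Unbound promoters held it in 67.9% and all promoters in 68.5%. TGANTCA, the site of AP-1 factors, was in 7.55% of all promoters, 6.49% of those bound at both stages, 4.16% of those bound in myotubes only and 11.5% of those bound in myoblasts only, or 9 of 78. Median GC content was 62% in promoters bound at both stages, 61.7% in myotubes only, 59% in myoblasts only and 55.3% in unbound promoters, and its part in these shares was not tested. These intervals, and all below, cover counting error only.

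The myotube list held most of the myoblast list and many regions besides. Of the myoblast peaks 13407 (73.9%) were shared and 4734 (26.1%) were lost. Of the myotube peaks 13527 (34.1%) were shared and 26173 (65.9%) were gained. Shared positions were closely aligned, with a median of 54 bp between the centres of the 13641 overlapping pairs. The covered sequence was 16.3 Mb in myoblasts and 33.1 Mb in myotubes, with median peak widths of 802 and 747 bp.

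The numbers gained and lost depended on list length. When the myotube list was reduced to its 18141 highest-scored peaks, the length of the myoblast list, 8525 of them (47.0%) had no myoblast peak and 8500 myoblast peaks had no myotube peak. With lists of equal length these 2 counts are close by construction. At that length 53.1% of the myoblast peaks were shared. More bound cells and stronger binding per cell cannot be told apart in such bulk libraries.

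Peaks found at a single stage had lower scores. The deposited score was at least 60 in both lists and was used only as a percentile within its own list. The median percentile was 29.5 for lost and 59.1 for shared myoblast peaks, and 39.1 for gained and 73.5 for shared myotube peaks. The share of lost peaks was 46.5% in the lowest-scored quintile of the myoblast list and 3.72% in the highest (135 of 3629). The share of gained peaks went from 86.8% to 30.4%, so that 2416 of the 7940 highest-scored myotube peaks had no myoblast counterpart. Over the overlapping pairs, the ranks at both stages correlated only in part (Spearman rho 0.46, across peaks of the same 2 libraries).

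**Figure D1:**
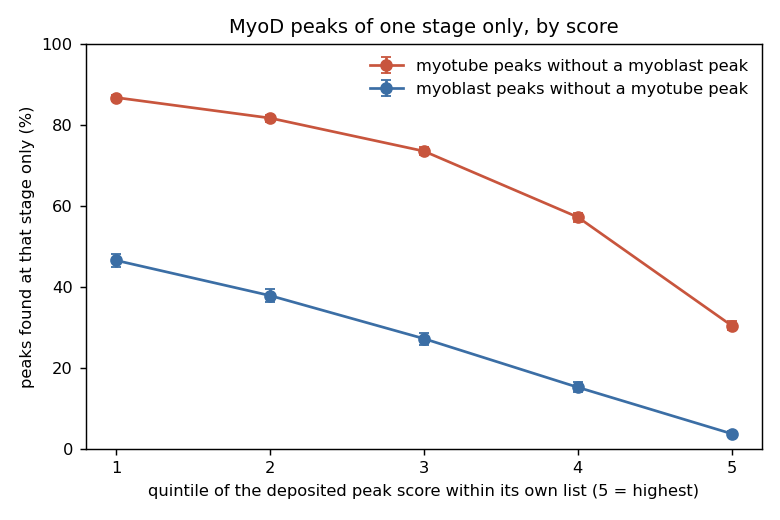
Share of MyoD peaks found at a single stage (vertical axis, %) in quintiles of the deposited score within each list (horizontal axis, 5 highest). Points are shares and bars exact 95% intervals; lost myoblast peaks drop to 3.72% in the top quintile, while 30.4% of the top myotube quintile is gained.

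The gained peak of highest score lay 5.50 kb from Rgs8, a regulator of G-protein signalling (score 3224). The next, with a score of 3203, lay in Ppfia4, 17.6 kb downstream of the start of Myog. The other gained peaks with a score above 3100 were nearest to Ddx60, Dcps and Cd97. A score of exactly 3100 was shared by 505 myotube peaks, 26 of them gained, and these cannot be ranked among themselves. The 5 widest of the 26 lay in or nearest to Gpr56, Apol6, Josd2, Acta1 and Lmod2, the last a leiomodin that builds actin filaments. The peak given to Apol6 also overlapped the locus of Mb, myoglobin. All 10 peaks named overlapped a MyoG peak and all 10 lay in a myotube H3K4me1 domain, and 3 of them lay in a myoblast domain. Over all gained peaks of the top score quintile these shares were 96.2%, 97.6% and 43.4%.

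The lost peaks of highest score did not reach that range. The first, at the 96.9 percentile of the myoblast list, lay 365 kb from Trps1, and the others of the 10 highest included peaks nearest to Stag1, 2310002L13Rik, Lifr, Pmp22, Arvcf, Myo18a, Hgf and Myo3b. The peak in Hgf, which encodes hepatocyte growth factor, had a score of 1480 and lay 175 kb from the nearest myotube peak. All 10 lay in a myoblast H3K4me1 domain, 8 in a myotube domain, and 3 overlapped a MyoG peak. Over all lost peaks of the top score quintile these shares were 93.3%, 68.9% and 23.0%.

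MyoG was found at gained peaks far more often than at lost ones, but the MyoG list came from myotubes only. Gained peaks were called at that stage and lost peaks, by definition, were not. How far this class rule sets the difference was not tested. MyoG peaks overlapped 80.8% of shared myotube peaks (80.1 to 81.4%), 59.7% of gained peaks (59.1 to 60.3%) and 16.8% of lost peaks (15.8 to 17.9%). The distance between shared and gained peaks was widest at low scores. In the lowest quintile of the myotube list MyoG overlapped 44.4% of shared (41.4 to 47.5%) and 33.0% of gained peaks (31.9 to 34.1%), and in the next 56.8% and 49.5%. The shares were 69.1% and 67.1% in the middle quintile, 84.2% and 85.5% in the one above it, and 96.3% and 96.2% in the top quintile. Lost peaks stayed between 12.6% and 23.0% in every quintile of the myoblast list, whereas shared myoblast peaks had MyoG in 70.4% of the lowest quintile and 91.4% of the highest. A position with MyoD called in myoblasts and not in myotubes was seldom in the MyoG list of myotubes, at any myoblast score.

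H3K4me1 separated the classes in another way. Myoblast domains covered 87.0% of shared myotube peaks, 85.9% of lost peaks and 48.4% of gained peaks. The share for gained peaks hardly moved with score, from 48.4% in the lowest quintile to 43.4% (41.4 to 45.4%) in the highest, where shared peaks stood at 89.4%. In myotubes the domains covered 81.9% of gained and 69.3% of lost peaks. Of gained peaks, 35.9% lay in a domain of myotubes only and 15.7% in a domain of neither stage. Of lost peaks, 18.9% lay in a domain of myoblasts only and 67.0% in domains of both stages, so most regions that left the MyoD list stayed in the H3K4me1 list.

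**Figure D2:**
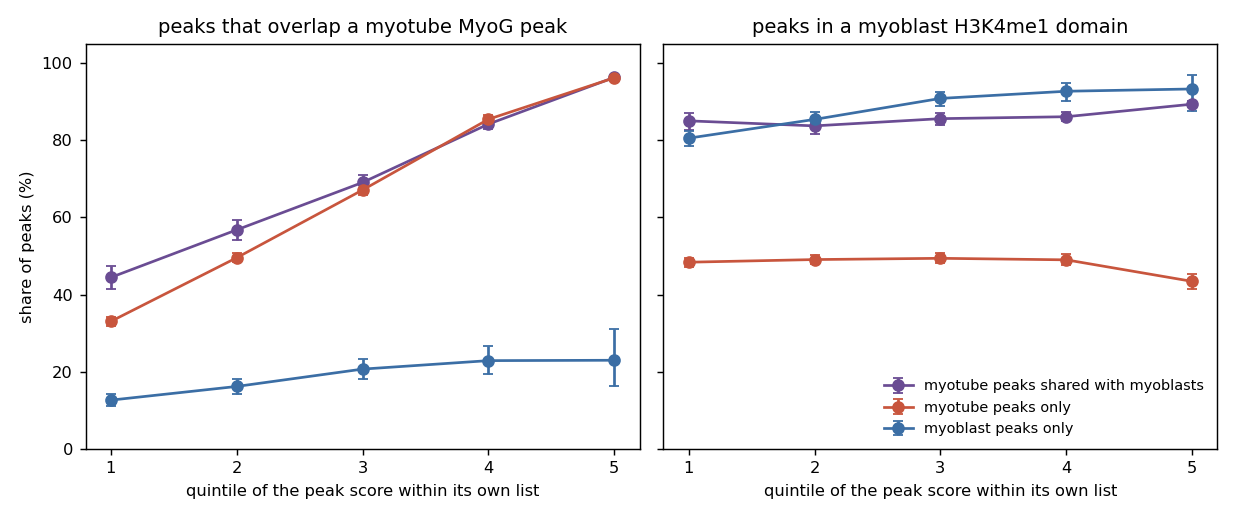
Share of MyoD peaks (vertical axis, %) that overlap a myotube MyoG peak (left) or lie in a myoblast H3K4me1 domain (right), by quintile of the deposited score within each list (horizontal axis). Bars are exact 95% intervals; for MyoG the shared and gained curves meet at 96.3% and 96.2% in the top quintile, and for myoblast H3K4me1 they stay apart at 89.4% and 43.4%.

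Gained peaks lay nearer to genes than lost peaks. Of gained peaks 56.0% lay inside a locus of the expression tables and 70.2% within 10 kb of one, against 51.7% and 64.9% of shared myotube peaks and 40.03% and 50.8% of lost peaks. Lost peaks lay more than 100 kb from any locus in 19.5% of cases and gained peaks in 8.34%. A start of a gene was within 500 bp for 6.49% of gained, 5.81% of shared myotube and 2.05% of lost peaks. The median distance to a start was 40.2 kb for gained and 82.0 kb for lost peaks, which were mostly distal.

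Counted over 20314 gene symbols with peaks within 10 kb of the locus, 6508 (32%) had MyoD at both stages, 4908 (24.2%) in myotubes only, 473 (2.33%) in myoblasts only and 8425 (41.5%) at neither. With the myotube list at equal length, 2019 genes had myotube peaks only and 1571 myoblast peaks only. Among the genes bound at both stages, 6064 held a shared position, 4376 had more peaks in myotubes and 340 had fewer. Locus length differed between the classes, with medians of 37.0 kb for genes bound at both stages, 20.6 kb in myotubes only, 20.9 kb in myoblasts only and 10.4 kb unbound. Its part in the gene counts was not tested.

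The genes that regulate the muscle programme come first. The myogenic factors Myod1, Myog, Myf5 and Myf6 encode related bHLH proteins. In both GFP controls all 8 myoblast markers reached 1 FPKM, with Myod1 at 37.7 FPKM in GFPi and 68.9 in pHAN_GFP. Of markers of other cell types, 0 of 12 for hepatocytes, 4 of 12 for neurons, 0 of 11 for blood and endothelium and 4 of 12 for adipocytes and bone did so.

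Myog (chromosome 1, 136186580 to 136189125, mm9) went from 2 to 9 peaks within 10 kb. The peak over its promoter, the sequence with CAGTTG printed above, stood at the 25.3 percentile of the myoblast list (score 92.2) and at the 99.2 percentile of the myotube list (score 3100). The upstream peak at -6.65 kb stood at the 48.2 and 89.2 percentiles. The other 7 were gained, and the wider cluster of 77.1 kb around Myog and Ppfia4 held 4 myoblast and 24 myotube peaks. Of the 16 myotube peaks in the plotted neighbourhood, 14 lay outside the myoblast H3K4me1 domains and all lay in myotube domains. The Myog locus thus had both myoblast positions in place, at low to middling scores, and a string of further positions in myotubes.

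Myod1 itself (chromosome 7, 53631843 to 53634462) had no myoblast peak within 10 kb and 4 myotube peaks. Its strand was not in the table used, so distances are from the lower coordinate of the locus. The 4 lay at -5.22, -0.212 and 3.24 kb and at -10.5 kb by centre, the edge of the last being within 10 kb. The peak at -5.22 kb stood at the 77.8 percentile and overlapped MyoG. Farther out, peaks at -34.8, -25.9 and -23.2 kb in myoblasts stood at the 94.7, 92.7 and 89.4 percentiles, and each was shared with a myotube peak, at the 95.04, 99.2 and 97.5 percentiles. The nearest myoblast peak, at -12.1 kb, stood at the 3.43 percentile and was shared with a myotube peak at the 39.2 percentile. Within 40 kb, all 4 myoblast peaks were thus shared, and 12 further myotube peaks were gained, on both sides of the gene.

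Myf5 (chromosome 10, 106919963 to 106923190) and Myf6 beside it had no peak within 10 kb at either stage. The nearest position held at both stages lay 30.7 kb upstream of the Myf5 start, and a further shared position lay about 141 kb upstream. Of the 4 myoblast peaks within 150 kb, the 2 at 82.4 and 129 kb upstream were lost, and 2 myotube peaks at 20.5 and 28.7 kb upstream were gained, so that 4 peaks stood at each stage. Mef2 factors work with myogenic factors at muscle genes. All 4 Mef2 genes had more myotube peaks, with Mef2d at 3 and 6, Mef2b at 0 and 2, and Mef2a and Mef2c at 1 and 2. The gained Mef2c peak lay 0.079 kb from the start at the 86.6 percentile, outside H3K4me1 domains of both stages.

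E proteins and bHLH inhibitors had a smaller surplus of myotube peaks. Their 13 genes had 34 myoblast and 48 myotube peaks, a ratio of 1.41 where all genes together went from 14476 to 36476, a ratio of 2.52. Such counts for lists and families are sums over genes, so a peak near several genes counts several times. Shares in H3K4me1 domains and score ranks count each peak once. Counted once, peaks near all genes were 8676 shared and 2406 lost in myoblasts, and 8773 shared and 18385 gained in myotubes. Of the 13 genes, 5 had more peaks in myotubes, 3 had fewer and 5 had equal numbers. None was bound in myotubes only, against 24.2% of all genes, as was also the case for the 8 troponins and the 12 genes of the muscle synapse. Tcf12 and Tcf4, which encode E proteins, had 7 and 14 peaks and 7 and 12 peaks in myoblasts and myotubes. Id1 had 5 and 4, Id2 had 2 and 1, Id3 had 3 and 4, and the Notch effector Hes1 had 3 and 1. At Id3 the peak about 3 kb upstream stood at the 92.3 percentile in myoblasts and its myotube partner at the 72.0 percentile, while the other shared peak stood at the 31.5 percentile in myoblasts and the 67.0 percentile in myotubes. The remaining myoblast peak was lost and 2 myotube peaks were gained. That other myoblast peak was broad and covered the Id3 start, and it was shared with a narrower myotube peak that ended before the start, which is why its promoter counts as myoblast only.

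**Figure D3:**
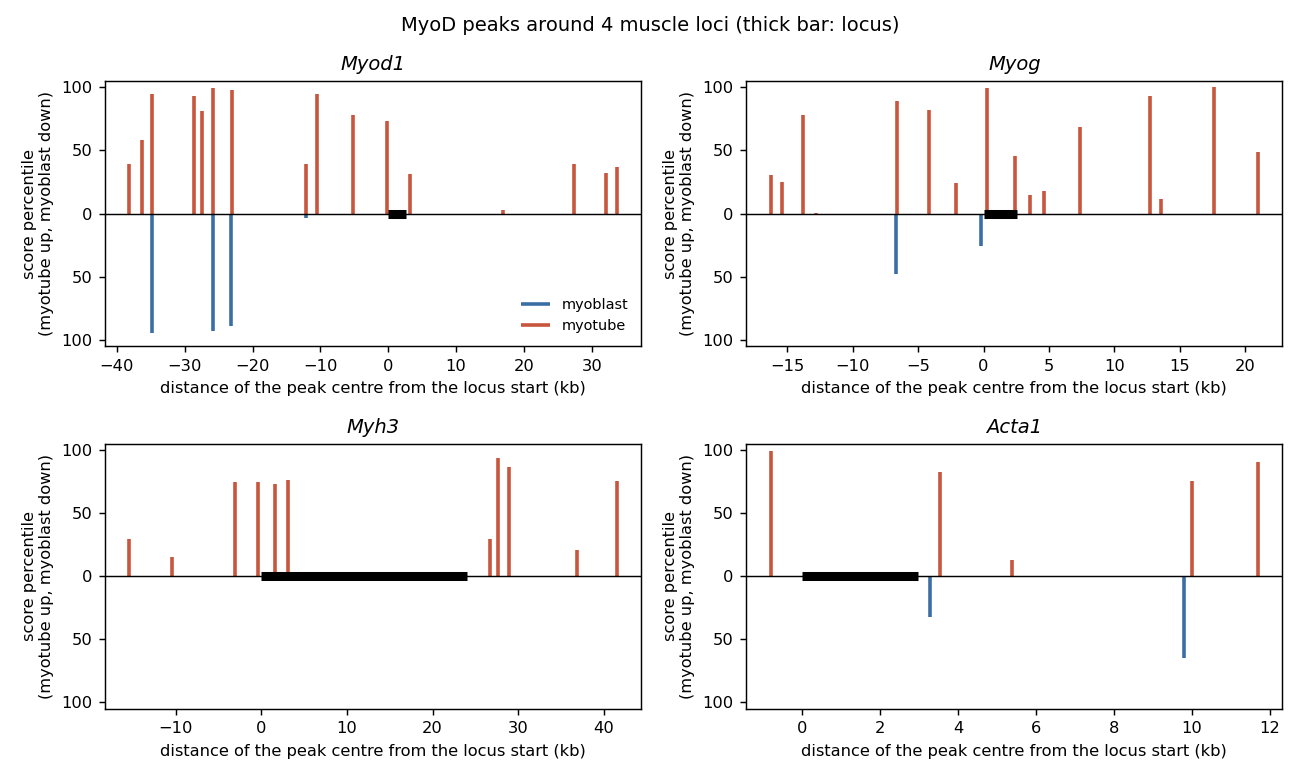
MyoD peaks around Myod1, Myog, Myh3 and Acta1: horizontal axis, distance of the peak centre from the locus start in kb (from the lower coordinate for Myod1); vertical axis, score percentile within the list, myotube upward and myoblast downward. Thick bars mark the loci; Myh3 has no myoblast peak, and Myog has its 2 myoblast peaks under myotube peaks at the 89.2 and 99.2 percentiles.

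Among the lists of contractile genes the sarcomeric myosins had the highest ratio of myotube to myoblast peaks. The 17 sarcomeric myosins and binding proteins had 15 myoblast and 73 myotube peaks, a ratio of 4.87. Of these genes 8 (47.1%) were bound in myotubes only, against 24.2% of all genes. Mybpc1, a myosin-binding protein, and Myl1, an alkali light chain, each had 1 and 9 peaks. Myh7b had 0 and 8, and Myh3, embryonic myosin (chromosome 11, 66891801 to 66915793), 0 and 7. The 4 peaks centred from -3.07 to 3.12 kb of the Myh3 start stood between the 73.0 and 76.6 percentiles, and the highest, 27.6 kb from the start, at the 94.0 percentile. Of the 59 gained peaks of the myosin list, 41 (69.5%) lay in H3K4me1 domains of myotubes only, against 34.3% of gained peaks near all genes. Myl3 had none, and Mylk2, a myosin light chain kinase, had 6 at each stage.

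Thin filament, Z-disc and M-line genes showed the same direction. Their 34 genes had 45 and 157 peaks, a ratio of 3.49, with more in myotubes for 31 and fewer for 1, Nebl (1 and 0). Tmod1, which caps actin filaments, had 5 and 16, Myom1 of the M-line had 3 and 10, Tpm2, a tropomyosin, had 1 and 7, and Actn2, the Z-disc alpha-actinin, had 0 and 6. Acta1 (chromosome 8, 126415666 to 126418636) had 2 and 5. The gained peak over the Acta1 promoter printed above reached the score of 3100, and 2 further peaks were gained behind the gene. Of the 2 shared peaks behind it, the nearer stood at the 32.4 percentile in myoblasts and the 82.7 percentile in myotubes, and the one about 10 kb from the start at 64.8 and 75.6. Des, the intermediate filament desmin, had 1 and 4, and its promoter peak was already at the 92.0 percentile in myoblasts and stood at 93.7 in myotubes. The 8 troponins, by contrast, were all bound at both stages, against 32% of all genes. They had 19 and 35 peaks summed over genes, but 16 distinct myoblast peaks, because neighbouring troponins share some. None was lost, against 20.1% near all genes, a share of the summed counts.

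Excitation and energy genes lay between the myosins and all genes. The 21 genes of excitation-contraction coupling had 29 and 95 peaks (ratio 3.28), led by Ryr3, a calcium release channel, with 2 and 11, Cacna2d1 with 4 and 11, and the junctophilins Jph1 with 2 and 9 and Jph2 with 5 and 11. Ryr1 had 2 and 1. The 19 genes of muscle energy metabolism had 15 and 47 peaks (ratio 3.13). Of these genes 8 (42.1%) were bound in myotubes only, against 24.2% of all genes. Mb, myoglobin, had 4 and 13 over a locus of 41.6 kb, and Ampd1, Pfkm and the muscle creatine kinase Ckm each had 0 and 3. The Ckm peaks were of middling score, at the 39.0, 49.97 and 63.0 percentiles, and all 3 overlapped MyoG.

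Genes of the muscle synapse were mostly bound at both stages. Of 12 genes, 11 had peaks at both stages and none was bound in myotubes only, against 32% and 24.2% of all genes. No myoblast peak was lost, against 20.1% near all genes. Colq had 2 and 7 peaks, Dok7 4 and 7, Musk, the receptor kinase of the synapse, 3 and 6, and Chrnb1 2 and 5. At Chrna1 (chromosome 2, 73401337 to 73418363) the promoter peak stood at the score of 3100 at both stages.

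The rank of shared peaks was compared between the stages for each list. The median percentile of shared peaks near all genes was 57.3 in myoblasts and 74.7 in the longer myotube list, a difference of 17.3 points, and 14 of 26 lists had a greater difference. Among the muscle lists it was 50.7 and 86.7 for the troponins, 64.8 and 91.1 for the thin filament list, 72.9 and 93.2 for excitation-contraction coupling, 67.7 and 92.6 for the synapse list, 61.1 and 83.1 for the myosins and 59.3 and 86.6 for energy metabolism, while fusion, adhesion and repair genes, at 67.9 and 73.5, had a smaller difference than all genes. Lists that are not specific to muscle had differences as large, with 50.4 and 86.5 for housekeeping genes, 42.8 and 78.7 for AP-1 and Egr factors, 55.7 and 86.3 for cell cycle exit and 50.6 and 76.6 for DNA replication and mitosis. The median was lower in myotubes for 2 lists. For smooth muscle and YAP targets it was 82.6 and 72.5, and for adipocyte and bone markers 63.9 and 56.5. The 2 latter lists have 17 and 8 shared myoblast peaks only. Several lists with a rise have as few. There are 9 for housekeeping genes, 12 for AP-1 and Egr factors and 13 for DNA replication and mitosis. The myosins have 13, energy metabolism 14 and the troponins 16.

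The ratios of further lists of regulators lay on both sides of that of all genes, 2.52. The 16 genes of cell cycle exit had 20 and 50 peaks (ratio 2.5). Ccnd3, a cyclin, had 4 and 8, Gadd45a 1 and 5, Gadd45b and Gadd45g each 3 and 6, and the inhibitor Cdkn1a (p21) 0 and 3. None of the Cdkn1a peaks overlapped MyoG. The 24 genes of DNA replication and mitosis had 13 and 35 (ratio 2.69). The 16 AP-1 and Egr immediate early genes had 14 and 45 (ratio 3.21), with Fosl2 at 1 and 6, Egr1 at 1 and 5, Junb at 0 and 4 and Jund at 3 and 6, and 6 of the 16 (37.5%) were bound in myotubes only. The myotube-only share over all genes was 24.2%. Of the 31 gained peaks of the AP-1 and Egr list, 5 (16.1%) were in myotube-only H3K4me1 domains, against 34.3% near all genes. The 17 TEAD, RUNX and SRF factors had 68 and 142 (ratio 2.09), among them Runx1 with 12 and 22, of which 11 were shared. Rbm24, a muscle RNA-binding protein, had 1 and 5. Its promoter peak stood at the 51.3 percentile in myoblasts and the 90.2 percentile in myotubes.

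Genes of 4 signalling pathways were described by the same counts. The IGF pathway, which promotes muscle growth, had 20 and 60 peaks over 14 genes (ratio 3), with the receptors Igf1r at 2 and 14 and Igf2r at 4 and 10, and the binding proteins Igfbp5 at 2 and 8 and Igfbp2 at 1 and 6. The Notch pathway, which holds muscle precursors back from differentiation, had 25 and 71 over 16 genes (ratio 2.84). Its receptors Notch2 and Notch1 had 6 and 17 and 1 and 8 peaks, its DNA-binding effector Rbpj 2 and 7, and its inhibitor Numb 1 and 6. FGF and ERK feedback genes had 27 and 57 over 17 genes (ratio 2.11), with Fgfrl1 at 0 and 5, the receptor Fgfr3 at 0 and 4, and Fgf2 and the inhibitor Spry2 each at 1 and 4. The TGF-beta and myostatin pathway, which restrains muscle growth, had 51 and 108 over 22 genes (ratio 2.12). Of its 51 myoblast peaks 13 (25.5%) were lost, against 20.1% near all genes. Smad3, which carries the signal to the nucleus, had 12 and 21, the receptors Acvr1 and Tgfbr1 3 and 10 and 0 and 6, and Ltbp2 8 and 13.

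Fusion, adhesion and membrane repair genes had 87 and 155 peaks over 27 genes (ratio 1.78). Of the 87 myoblast peaks 14 (16.1%) were lost, against 20.1% near all genes. Dag1, dystroglycan, had 1 and 9, Dysf, the repair protein dysferlin, and Dtna each 5 and 12, and Nfatc2 8 and 19. Cdh15, the cadherin of muscle cells, had 2 and 1, and the laminin receptor subunit Itga7 5 and 3. Muscle RNA-binding and chromatin factors had 37 and 77 over 13 genes (ratio 2.08), among them the splicing regulators Celf2 at 9 and 24 and Mbnl1 at 2 and 9. Smooth muscle and YAP targets had 23 and 43 over 13 genes (ratio 1.87), with Mylk, the light chain kinase of smooth muscle, at 4 and 12 and the calponin Cnn1 at 1 and 0. Krueppel-like factors had 13 and 36 over 14 (ratio 2.77), with Klf9 at 0 and 4 and Klf13 at 4 and 7. Housekeeping genes had 11 and 20 over 12 (ratio 1.82), with Actb at 1 and 6 and Gapdh at 3 and 6.

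Extracellular matrix genes had 89 and 153 peaks over 29 genes (ratio 1.72), and 5 genes had fewer in myotubes. Lost peaks were 24 of the 89 (27.0%), above the 20.1% near all genes in the same summed counts. The share in the whole myoblast list, 26.1%, counts each peak once and includes peaks far from genes. Timp3 had 12 and 24, Col4a2, a basement membrane collagen, had 12 and 21, Col5a1 had 0 and 9, and Loxl1 had 4 and 11, while its relative Loxl2 had 9 and 4. Markers of other cell types were bound as well. The 12 neuron markers had 6 and 15 peaks (ratio 2.5), of which Rbfox3 with its locus of 419.8 kb had 3 and 10. The 11 blood and endothelium markers had 5 and 16 (ratio 3.2), as high a ratio as several muscle lists, and 36.4% of them were bound in myotubes only. The 12 hepatocyte markers had 0 and 7, with 4 genes (33.3%) bound in myotubes only and 8 (66.7%) unbound at both stages. Of all genes, 24.2% were bound in myotubes only and 41.5% at neither stage. The 12 adipocyte and bone markers had 13 and 15 (ratio 1.15), with Adipoq, the adipocyte hormone adiponectin, at 3 and 0 and Pparg, a regulator of fat cells, at 2 and 6.

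**Figure D4:**
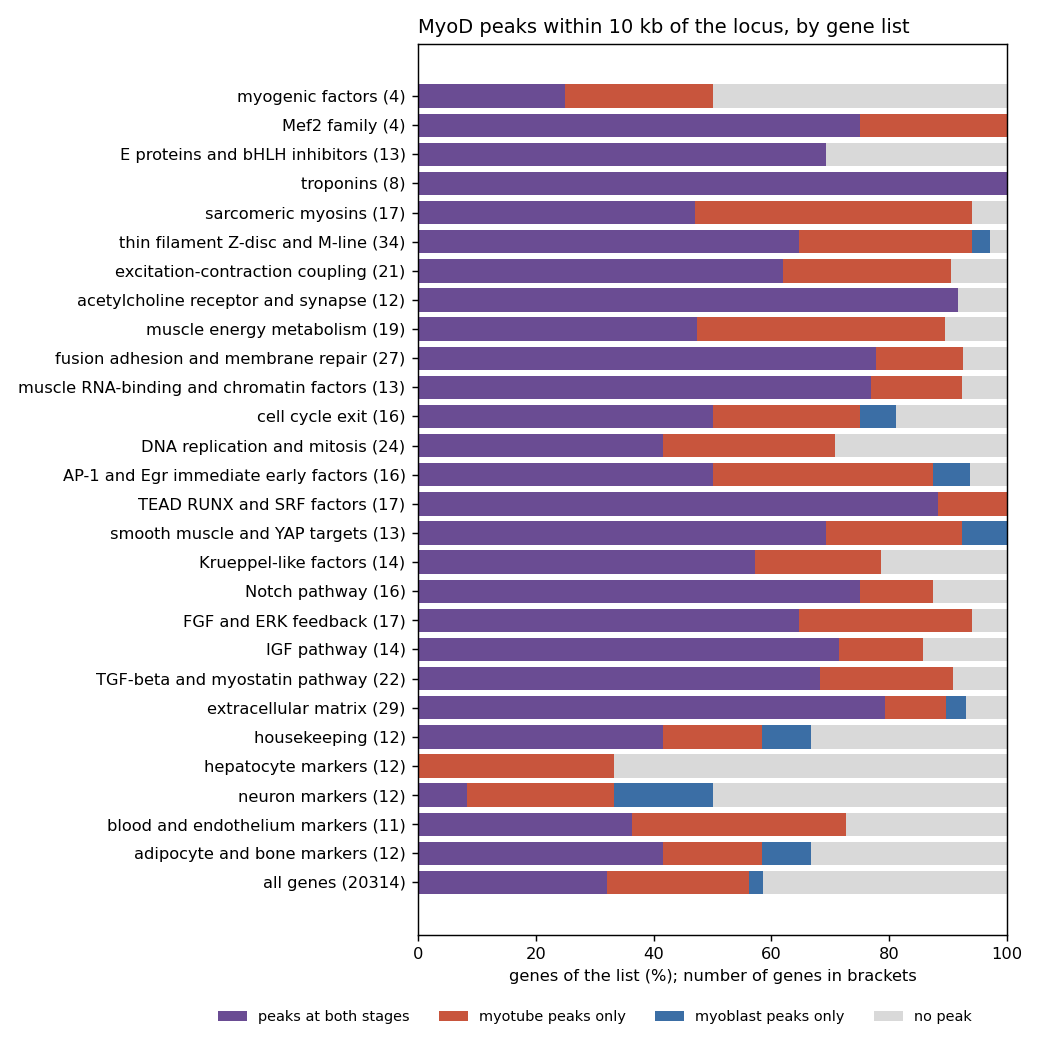
Share of genes in each list (horizontal axis, %) with MyoD peaks within 10 kb of the locus at both stages, in myotubes only, in myoblasts only or at neither, with the number of genes in brackets. Myotube-only genes make up 47.1% of the sarcomeric myosins, 24.2% of all genes, and 0 of the 13 E proteins and bHLH inhibitors, the 8 troponins and the 12 synapse genes.

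Over all genes, 9284 symbols had more peaks in myotubes and 813 had fewer. The 10 symbols with the greatest increase in count were long loci of 208 to 517 kb: 2010111I01Rik (14 and 39 peaks), Cux1 (12 and 35), Ttc28 (11 and 34), Foxp1 (6 and 29), Arid1b (2 and 25), Zmiz1 (16 and 38), Rptor (10 and 32), Rad51l1 (8 and 30), Kcnq1 (2 and 24) and Zbtb7c (12 and 33). Foxp1 and Cux1 encode transcription factors, Arid1b a subunit of the SWI/SNF chromatin remodeller, and Rptor the raptor subunit of the mTOR complex. Kcnq1 had 0.0101 FPKM in GFPi, so a string of gained peaks also lay over a gene that was hardly expressed at 4 h.

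Decreases were smaller. Ezh1, a Polycomb methyltransferase, had 12 peaks in myoblasts and 7 in myotubes, and Loxl2 9 and 4. Myo3b had 6 and 1, Pard3b 11 and 7, Adamts16 10 and 6, Il1r1, an interleukin receptor, 9 and 5, Htra1, a secreted protease, 8 and 4, Ebf1 and Ncoa7 each 5 and 1, and Fmn1 16 and 13. At Myo3b, Ebf1 and Ncoa7 no myoblast position was shared. Ezh1 lost 8 positions, shared 4 and gained 3, so positions were exchanged as well as lost.

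Families were taken as symbols with the same letter prefix and 10 or more members, 242 families with 7590 genes. Arid genes, DNA-binding subunits of several chromatin complexes, had 12 and 70 peaks over 10 genes, with none lost (ratio 5.83). Arid1b alone had 2 and 25 of them. Higher ratios occurred in families with few myoblast peaks, among them Cdkn (1 and 12), Exosc (1 and 10), Armc (3 and 24) and Cox (4 and 27). Myh genes had 11 and 53 over 14 genes (ratio 4.82), and Myl genes 10 and 40 over 10 (ratio 4). Dock genes, exchange factors of small GTPases, had 31 and 47 over 11 (ratio 1.52), and collagens 88 and 170 over 44 (ratio 1.93). Olfactory receptors had 30 and 27 peaks over 1110 genes, and 96.4% of them were unbound at both stages. Vomeronasal receptors had 8 and 8 over 313 genes, and none of the 10 Hoxb genes was bound. Families whose members share a locus, such as the protocadherin clusters, count the same peaks many times and were not compared.

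MyoD peaks were more clustered in myotubes. Peaks of the same list were joined where their centres lay about 13 kb or less apart, a distance in common use for joining enhancers. Clusters of 3 or more held 21.6% of myoblast peaks (21.0 to 22.2%) and 45.4% of myotube peaks (44.9 to 45.9%). Clusters of 10 or more held 55 myoblast and 2320 myotube peaks, and the greatest had 12 and 32 peaks. The lists differ in length, and at equal length the myotube share was 26.7%. Within the myotube list, shared and gained peaks were clustered alike, 46.6% and 44.7% of them lying in clusters of 3 or more. Among myoblast peaks, lost ones were less often so (17.1%) than shared ones (23.1%).

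With both lists joined there were 23446 regions, 10066 with peaks of both stages, 11072 with myotube peaks only and 2308 with myoblast peaks only. Of gained peaks, 58.5% fell in regions with no myoblast peak, and the median gained peak lay 21.5 kb from the nearest myoblast peak. The median lost peak lay 14.0 kb from the nearest myotube peak. Of the 1370 regions with 5 or more myotube peaks, 144 held no myoblast peak. The one with the most myotube peaks lay over Zmiz1, a coactivator (14 and 32 peaks in 110 kb), followed by the region of Fbln2, Hdac11 and Nup210 (2 and 28) and the Flrt1 and Macrod1 region (6 and 24), with the Myog region equal to it in myotubes. Regions that went from 0 to many included Nup214 with its neighbours (15 peaks), Myl1 (9), Tmem38a, a channel of the sarcoplasmic reticulum, with its neighbour (9), and Actn2 (8). In the other direction, 18 regions held 3 or more myoblast peaks and no myotube peak, among them 1 with 4 peaks, 31.9 kb from Nefl.

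**Figure D5:**
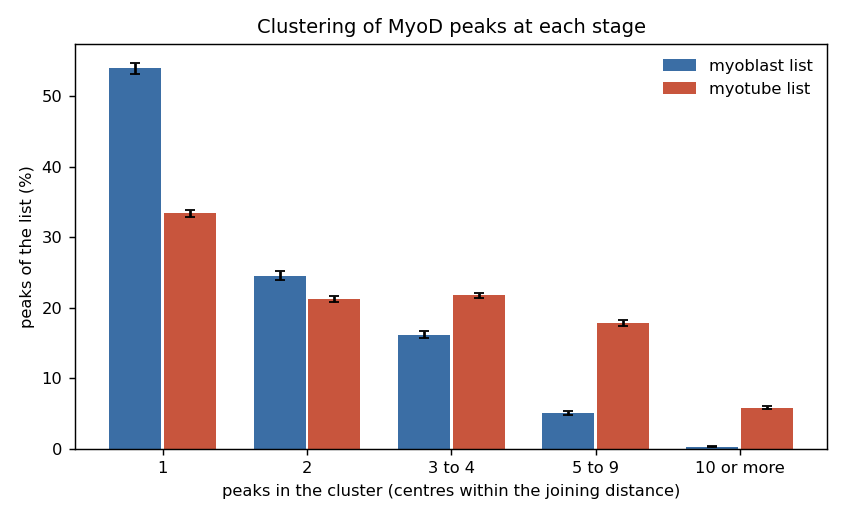
Share of MyoD peaks of each list (vertical axis, %) by the number of peaks in their cluster (horizontal axis), with exact 95% intervals. Single peaks make up 53.9% of the myoblast and 33.4% of the myotube list, and clusters of 10 or more 0.303% and 5.84%.

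Across chromosomes the ratio of myotube to myoblast peaks ran from 1.89 on X to 2.43 on chromosome 11, which also had the lowest share of lost peaks (21.8%, 19.5 to 24.2%). On X, 30.4% of myoblast peaks were lost (25.3 to 36.0%). Gained peaks made up between 63.0% and 67.6% of the myotube peaks of each chromosome. Per 100 loci of the expression tables, X had 35.2 myoblast and 66.5 myotube peaks. The next lowest, chromosome 7, had 49.7 and 111, and the other autosomes had 173 to 284 myotube peaks. None was called on Y.

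Expression 4 h into differentiation differed between the classes in level, and the share of genes that differed between libraries was largest among genes bound at both stages when the small myoblast-only class is set aside. In GFPi, 69.5% of genes bound at both stages reached 1 FPKM, as did 66.3% of genes bound in myotubes only, 42.5% of those bound in myoblasts only and 30.1% of unbound genes. In DRRi, 3.5% of 10577 expressed genes were lower and 4.66% higher than in GFPi by 1.5-fold, on a log2 scale with a pseudocount of 1 FPKM. Genes bound at both stages were lower in 4.45% (203 of 4560) and higher in 5.15%, and genes bound in myotubes only were lower in 2.79% (91 of 3259) and higher in 4.11%. Unbound genes were close to the latter, lower in 2.78% and higher in 4.26%. Of 200 genes bound in myoblasts only, 5 were lower and 15 higher. In pHAN_DRR1.2, 0.654% of 10699 genes were lower and 1.38% higher than in pHAN_GFP. Genes bound at both stages were lower in 0.967% and higher in 2.06% (96 of 4654), above all genes in both directions. Genes bound in myotubes only were lower in 0.305% and higher in 0.579% (19 of 3280), below all genes in both directions. Unbound genes were also below all genes, lower in 0.429% and higher in 1.09%. Of 200 genes bound in myoblasts only, 4 were lower and 5 higher in pHAN_DRR1.2.

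The share of genes lower in DRRi hardly moved with the number of gained peaks up to 7, from 3.30% of genes with none to 3.48% of genes with 4 to 7, and was 5.08% (16 of 315) with 8 or more. The median locus of these groups went from 12.3 to 182 kb, and its part was not tested. A few genes are given as examples, chosen after their values were seen. Myog stood at 10.2 FPKM in GFPi and 2.61 in DRRi, and at 26.3 in pHAN_GFP and 65.8 in pHAN_DRR1.2. Myh3 stood at 1.01 FPKM in pHAN_GFP and 4.79 in pHAN_DRR1.2; in the DRRi experiment it averaged under 1 FPKM (0.410 and 0.0558) and was not among the genes compared. Rbm24 stood at 7.25 and 1.66, but was also lower in pHAN_DRR1.2, at 7.11 against 12.6. Loxl2, with fewer peaks in myotubes, stood at 2.51 FPKM in GFPi and 11.3 in DRRi. The medians of genes bound in myotubes only were nevertheless near 0 on the log2 scale, at 0.018 in DRRi and 0.019 in pHAN_DRR1.2, against 0.022 and 0.019 over all genes.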

How the data were processed

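The members, gene lists and thresholds were chosen with earlier results of these data known. Per the file headers, MACS made the MyoD and MyoG peak lists. Each peak carries a deposited score. The definition of the score, the version of MACS, its control and the pooling of the 2 runs that the labels name per sample are not given in the sources used here. The header of the myotube list names run 2. H3K4me1 domains (SICER, per the submitters' processing notes) carry a deposited fold over control, which was not used beyond the positions. Expression was the FPKM per coding sequence, deposited by the authors in 1 table per experiment and summed per symbol. TopHat and mm9 are named in the submitters' processing notes. In these tables the library set against GFP carries another name than in the labels.

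Here, with Python 3.11.15, pandas 2.3.3 and scipy 1.17.1, peaks were overlapped by 1 bp or more. They were assigned to each locus within 10 kb and joined into clusters at about 13 kb. Overlap functions were tested on simulated data. Expression changes were log2 values with a pseudocount of 1, for genes that averaged at least 1 FPKM. With 1 library per group no test was made, and shares have exact 95% intervals. Promoters were matched to loci by length, within 500 bp or 2%. Coordinates are mm9, counted from 1, except RefSeq promoters (GRCm38.p6). No mm9 genome was used here, so peak sequences are not printed. The genes named were a set of anchors, the 10 greatest rises and falls, those nearest the 10 highest gained and lost peaks (ties by width), and up to 4 members per list with the largest rise; others were chosen after their values were seen. Alternatives covered overlap rule, score minimum, list length, gene distance, cluster distance, pseudocount and expression filter. A gene list and the genes nearest to some peaks are not reported here. The 2 ribosome-depleted RNA samples were not analysed here.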

Additional observations from a re-analysis of the deposited data

How the results depend on the processing

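Of 82 alternative values, 37 stayed within the main interval or 1.5 times the main count, and 45 moved further. Under each alternative that gave both values, MyoG was at fewer gained than shared myotube peaks, myotube H3K4me1 at more gained than lost peaks, clusters held a larger share of the myotube list, and more genes were bound in myotubes only than in myoblasts only. With the myotube list at the length of the myoblast list, 53.1% of myoblast peaks were shared and 47.0% of myotube peaks gained, 2019 genes were bound in myotubes only and 1571 in myoblasts only, MyoG was at 86.5% of gained and 90.4% of shared peaks, myotube H3K4me1 at 92.2% of gained and 75.7% of lost peaks, the median percentiles of lost and gained peaks were 34.0 and 36.8, and 26.7% of myotube peaks were in clusters of 3 or more. With centres 200 bp or less apart, 64.5% of myoblast peaks were shared, 70.5% of myotube peaks gained, MyoG was at 61.1% of gained peaks, myotube H3K4me1 at 82.9% of gained and 76.4% of lost peaks, and the median percentiles of lost and gained peaks were 35.6 and 40.8. With a gap of up to 500 bp, 74.96% were shared, 63.9% gained, and MyoG was at 79.4% of shared myotube peaks.

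With scores of 100 or more, 66.5% of myotube peaks were gained, MyoG was at 73.7% of gained and 87.0% of shared peaks, myotube H3K4me1 at 86.7% of gained and 74.3% of lost peaks, and clusters held 16.2% of myoblast and 37.4% of myotube peaks. With scores of 200 or more, 74.9% of myoblast peaks were shared, 67.5% of myotube peaks gained, with a median percentile of 39.9, MyoG was at 86.7% of gained and 92.8% of shared peaks, myotube H3K4me1 at 91.9% of gained and 79.8% of lost peaks, and clusters held 10.1% and 26.4%. At that score 3407 genes were bound at both stages and 3993 in myotubes only, the reverse of the order of 6508 and 4908 without it. Within 50 kb, 11353 genes were bound at both stages. Joining at 5 kb put 6.83% of myoblast and 19.0% of myotube peaks in clusters, and at 25 kb 39.96% and 67.5%. Without the filter on low expression, the median log2 change of genes bound in myotubes only was 0 in both experiments.

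No paired analysis was possible because each stage has 1 sample, and no replicate was left out. A peak missing from a list is one that was not called at its score minimum of 60, at a depth not given in the sources used here.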
